A study of Mus musculus with 12 samples.

Results

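The comparison described here is that of mouse embryonic liver cells 1 day after they were put into aggregate culture with the same cells in basal culture. It uses 8 of the 12 arrays of the series, the 4 titled as day 1 aggregates and the 4 titled as basal culture. The cells are BMEL (bipotential mouse embryonic liver) cells of 2 independently isolated lines, 9A1 and 14B3, derived from the liver of 14 dpc embryos (parents CBA/J x C57Bl/6J). Each line gave 2 arrays, called biological replicates in the labels, in basal culture, at aggregate day 1 and at aggregate day 5, and the 4 day 5 arrays are used here only as a reference level. No transgene, knockout or drug is named in the labels. Each line is 1 isolate, so a difference between the lines is a difference between 2 isolates.

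BMEL cells divide as attached cells in basal culture and can give rise to hepatocyte-like or bile duct-like cells, the former when they are left to form floating aggregates. In embryonic liver the hepatoblast, the shared precursor of hepatocytes and bile duct cells, gives up cell division as it takes on secretory and metabolic functions. Entry into S phase needs the E2F factors, which drive the genes that load and fire replication origins, while Myc drives the genes that make ribosomes.

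Levels are log2 values after RMA, a normalisation of the probes of each array, and differences between cultures are in log2 units, so that 1 unit is a 2-fold change. A change is day 1 minus basal with the line as a term in limma's linear model, and a gene was called at a Benjamini-Hochberg adjusted p under 0.05 over the 15570 genes that reached a level of 5 on at least 2 of the 8 arrays. "Rose" and "fell" are used for called genes only. Where 4 values are listed for a culture, they are those of 9A1 replicates 1 and 2 and then 14B3 replicates 1 and 2.

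Basal 9A1 replicate 1 stood apart from the other basal arrays. Over all probe sets its correlation with its own replicate was 0.952, against 0.995 between the basal 14B3 arrays. It resembled day 5 14B3 replicate 1 most (0.976). On a scale where the basal 14B3 mean is 0 and the day 1 14B3 mean is 1, it lay at a median of 0.773 over the 806 genes at least 2-fold higher at day 1 in 14B3, where basal 9A1 replicate 2 lay at 0.0460. Over the 960 genes at least 2-fold lower at day 1 in 14B3 the positions were 0.563 and 0.0795. It therefore lay between the cultures or beyond the day 1 level in many genes, and the list counts and the genes given array by array are reported with and without it. Whether its label is right was not tested, and it is named here as labelled. Day 1 9A1 replicate 2 also differed from its replicate (0.949) and had the narrowest spread of values (SD 2.13, against 2.25 to 2.33 on the other arrays compared here).

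Of the 15570 genes, 1294 (8.31%) were called: 401 (2.58%) rose and 893 (5.74%) fell. Renewed quantile normalisation of the 8 arrays gave 772 rises and 921 falls, so the split between directions depends on the scaling. With basal 9A1 replicate 1 left out there were 2975 calls (19.1%), 1336 rises (8.58%) and 1639 falls (10.5%), and 1291 of the 1294 were among them. Leaving out basal 9A1 replicate 2 gave 600 calls, and leaving out any 1 array of 14B3 gave 318 to 400. With any 1 array removed, 308 genes, 54 of them higher at day 1, were called every time. In each of the 1294 the lines changed in 1 direction, as the shared model favours, and 572 were at least 2-fold changed the same way in each line. The day 1 and basal arrays did not overlap in 1205 of the 1294 (93.1%), while over all genes tested 845 (5.43%) were higher and 1403 (9.01%) lower without overlap. The calls were made on the same arrays and favour such genes, so the 93.1% is no separate support. The change was larger without basal 9A1 replicate 1 in 1083 of the called genes (83.7%), and in none did it move by more than 1.5 times.

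**Figure D1:**
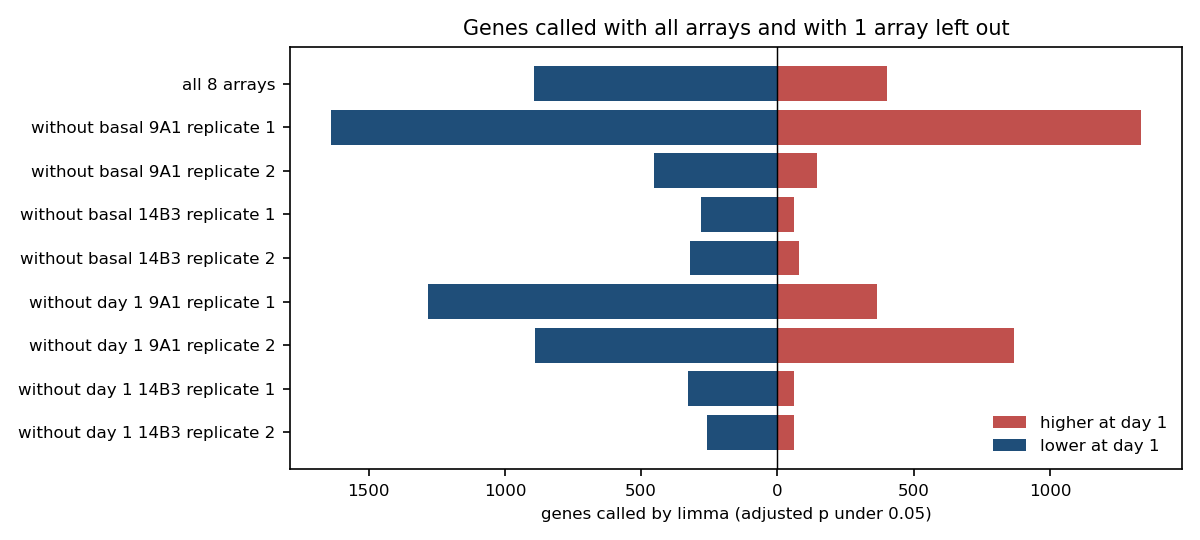
Number of genes called by limma at an adjusted p under 0.05 (x axis, falls to the left and rises to the right of 0) with all 8 arrays and with each array left out (y axis). Calls went from 1294 to 2975 without basal 9A1 replicate 1 and to between 318 and 400 without any 1 of the 14B3 arrays.

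Genes of DNA replication were lower in both lines. Of 36 tested with the lines together, 34 fell and none rose, with a median change of -2.08 beside 0.03 over all genes tested, and the 2 that did not pass were Orc1 (-0.05) and Fen1 (-1.02). The median was -1.95 in 9A1 and -2.20 in 14B3, and without basal 9A1 replicate 1 there were 35 falls. Fitted alone, 9A1 gave no call in the list, and 16 falls without that array. Between 29 and 35 fell whichever array was left out. In bulk RNA, fewer dividing cells and less RNA of these genes in each cell cannot be told apart.

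Cdc6, a licensing factor that brings the MCM helicase to origins, had the largest fall of any called gene. In basal culture it lay at 8.97, 9.42, 9.88 and 9.27, and at day 1 at 5.50, 5.22, 5.67 and 5.29. The lowest basal array was 3.30 units above the highest day 1 array, and basal 9A1 replicate 1 was the lowest of the basal arrays. The change was -3.96 ± 0.21 (SE; 15.6-fold lower; adjusted p = 0.000797), with -3.83 in 9A1 and -4.09 in 14B3, and it was -4.08 without basal 9A1 replicate 1.

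Dscc1, a subunit of a clamp loader that ties replication to sister chromatid cohesion, was at 7.87, 8.48, 9.09 and 8.56 in basal culture, then 5.16, 4.45, 5.61 and 5.11 at day 1. Its change was -3.42 ± 0.24 (adjusted p = 0.00116). Of 2 Dscc1 probe sets 1 was called when every probe set was fitted, with changes of -3.42 and -0.24. Esco2, the acetyltransferase that makes cohesin hold sister chromatids together, went from 8.71, 9.08, 9.22 and 8.74 to 5.50, 4.91, 6.23 and 5.58 (-3.38 ± 0.25, adjusted p = 0.00116). In both genes every basal array lay above every day 1 array. The changes were -3.55 and -3.39 without basal 9A1 replicate 1.

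Most of the replication machinery fell with them. The helicase subunits Mcm2, Mcm3, Mcm4, Mcm5, Mcm6 and Mcm7 changed by -1.91, -2.10, -2.10, -2.96, -1.37 and -1.61. Gins1 and Cdc45, which join them in the active helicase, changed by -3.08 and -2.19. The polymerase subunits Pola1, Pold1 and Pole changed by -2.98, -2.12 and -2.36, and the sliding clamp Pcna by -1.08. Orc1, of the complex that marks origins, was the 1 member in which basal and day 1 levels lay together (-0.05).

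E2F factors and their partners were split. E2f7, a repressor that is itself an E2F target, was at 8.22, 9.72, 9.89 and 9.19 in basal culture, then 5.92, 6.07, 6.10 and 5.93 at day 1 (-3.25 ± 0.34, adjusted p = 0.00204, and -3.60 without basal 9A1 replicate 1). The day 1 arrays lay close together, while basal 9A1 replicate 1 lay 1.38 units below the mean of the other basal arrays. Ccne2, the cyclin E2 of S phase entry, went from 7.47, 8.33, 8.70 and 8.30 to 4.99, 4.13, 4.88 and 3.81 (-3.75 ± 0.35, adjusted p = 0.00163), and its change was -4.00 without that array. All its day 1 values were below the level of 5 used to filter genes. The activators E2f1, E2f2 and E2f3 had changes of -0.19, -0.18 and -0.82 that did not pass, E2f3 passing without basal 9A1 replicate 1.

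The promoters of Cdc6 and E2f7 are shown because both hold an E2F motif (TTTCCCGC, TTTGGCGC, TTTCGCGC or TTTGCCGC on either strand). The sequences are the 250 bases before the RefSeq gene start, written 5′ to 3′ on the gene's strand with the motif in capitals. Cdc6 is at chr11:98907901-98908150 and E2f7 at chr10:110745189-110745438, both on the + strand of GRCm38.p6. The motif begins 138 bases before the start of Cdc6 and 198 bases before that of E2f7.
Cdc6: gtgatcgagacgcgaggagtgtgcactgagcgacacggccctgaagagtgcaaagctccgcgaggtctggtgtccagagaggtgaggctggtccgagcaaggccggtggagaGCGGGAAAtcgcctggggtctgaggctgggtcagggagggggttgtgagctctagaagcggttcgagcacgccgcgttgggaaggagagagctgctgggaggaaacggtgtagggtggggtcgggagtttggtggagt
E2f7: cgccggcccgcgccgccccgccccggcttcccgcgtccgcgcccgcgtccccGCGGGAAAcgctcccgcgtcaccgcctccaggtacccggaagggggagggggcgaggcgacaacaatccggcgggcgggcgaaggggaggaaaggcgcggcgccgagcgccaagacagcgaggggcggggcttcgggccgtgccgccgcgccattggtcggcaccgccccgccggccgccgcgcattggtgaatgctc

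Over the replication list, 14 of 32 promoter windows (43.8%) held the E2F motif, against 744 of all 32851 RefSeq windows (2.26%) and 542 of 15773 windows of the genes tested (3.44%). A window here is 250 bases before to 50 bases after a start, and a gene can have several. Genes that fell held it in 87 of 902 windows (9.65%) and genes that rose in 9 of 468 (1.92%). A match is a description of letters and no evidence of binding.

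Mitosis genes were lower in both lines. Of 31 tested with the lines together, 29 fell and none rose (median change -2.11; -2.11 in 9A1 and -2.06 in 14B3), and 27 to 30 fell with any 1 array left out. In 9A1 alone none was called, and 24 fell there without basal replicate 1. The exceptions were Pttg1 (securin, -0.08) and Kif2c (-1.20), the latter passing without basal 9A1 replicate 1. Nuf2, a kinetochore protein, went from 8.72, 10.05, 9.92 and 9.56 to 6.30, 6.20, 7.01 and 6.69 (-3.02 ± 0.29, adjusted p = 0.00167). Aurkb, the kinase of the chromosomal passenger complex, went from 9.31, 10.15, 10.43 and 10.28 to 6.72, 7.77, 7.42 and 7.29 (-2.74 ± 0.29, adjusted p = 0.00217). In both genes basal 9A1 replicate 1 was the lowest basal array and still lay above every day 1 array. Without it the changes were -3.26 in Nuf2 and -2.96 in Aurkb. Melk, a kinase made in dividing cells, changed by -3.15 ± 0.29 (adjusted p = 0.00155), and by -3.35 without that array.

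Averaged over the mitosis genes, the level in basal culture was 10.68 to 10.83 apart from basal 9A1 replicate 1, which had 9.67. At day 1 it was 8.13 and 8.30 in 9A1 and 8.76 and 8.56 in 14B3, and at day 5 it was 6.37 to 7.55. The day 1 arrays therefore lay between basal culture and day 5, and basal 9A1 replicate 1 lay between the other basal arrays and the day 1 arrays. In the promoters of this list, 20 of 26 windows (76.9%) held the CHR letters TTTGAA and 20 held CCAAT, against 17.9% and 37.4% of all windows.

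Nucleotide synthesis followed in part. Of 26 genes, 18 fell and none rose (median change -1.19), and 24 fell without basal 9A1 replicate 1. The count was 9 without basal 9A1 replicate 2 and 5 to 8 without any 1 array of 14B3. Tk1, the thymidine kinase of the salvage pathway, went from 10.43, 11.13, 11.47 and 11.05 to 8.20, 8.38, 8.72 and 8.60 (-2.54 ± 0.19, adjusted p = 0.00116, and -2.70 without basal 9A1 replicate 1). Mthfd2, a mitochondrial folate enzyme, was at 8.28, 10.25, 11.24 and 11.17 in basal culture, then 7.32, 7.79, 7.53 and 7.58 at day 1. Its basal 9A1 replicate 1 lay 2.61 units below the mean of the other basal arrays, and the change was -2.68 with that array and -3.27 without it. Rrm1 and Rrm2, the subunits of ribonucleotide reductase, changed by -2.22 and -2.52.

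**Figure D2:**
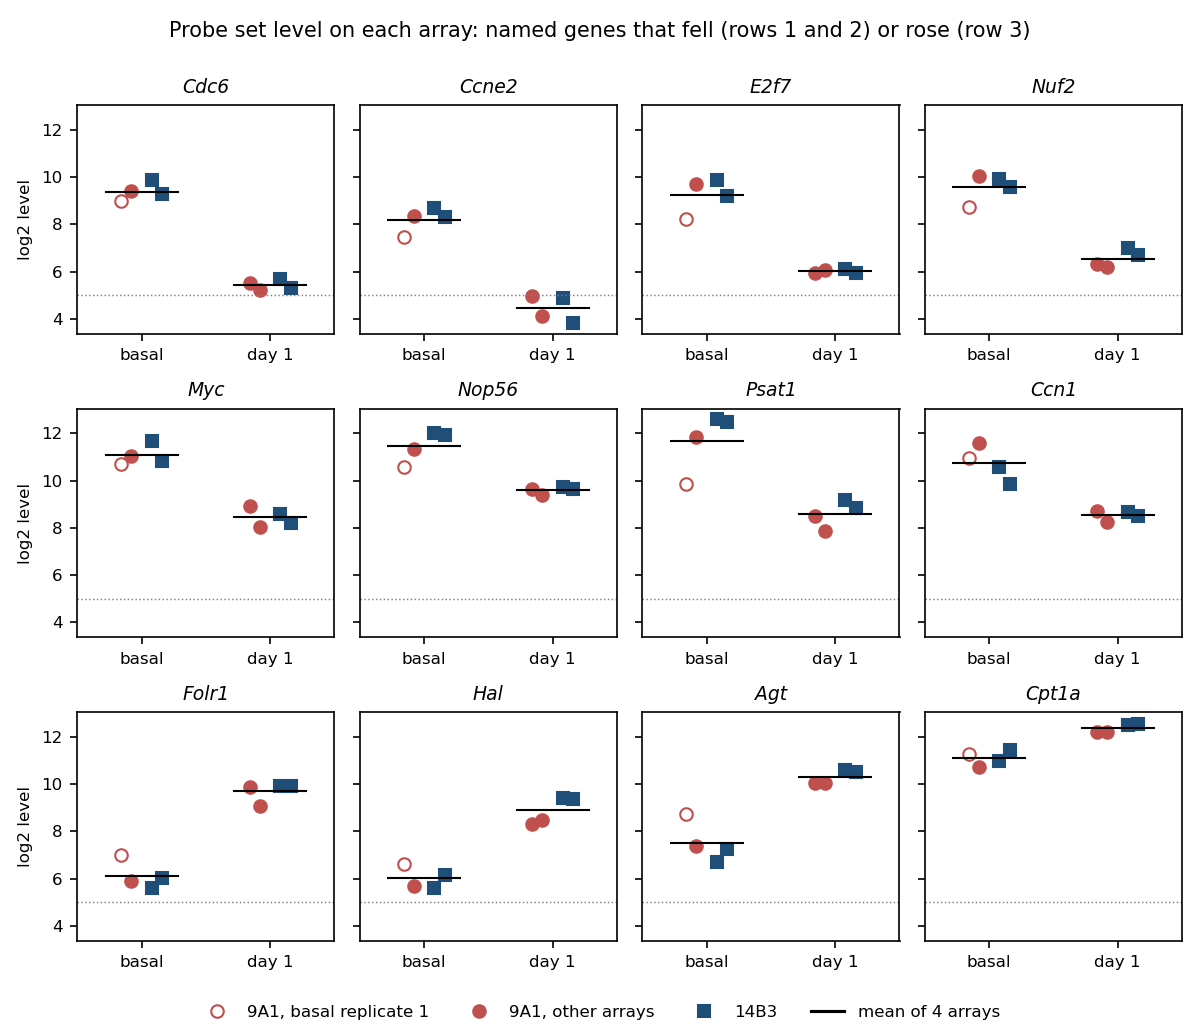
Level of 12 named genes on each of the 8 arrays (y axis, log2; x axis, culture), with 9A1 as circles, 14B3 as squares, basal 9A1 replicate 1 as an open circle, a bar at the mean of the 4 arrays of a culture and a dotted line at the level of 5 used to filter genes. In all 12 genes, named from calls on these arrays, the basal and day 1 arrays did not overlap, and for Cdc6 the gap between them was 3.30 units.

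Among the G1 regulators 9 of 26 fell and 1 rose (median change -0.68), with 11 falls and 1 rise without basal 9A1 replicate 1 and 5 to 6 falls when basal 9A1 replicate 2 or any 1 array of 14B3 was left out. The D cyclins moved apart. Ccnd3 rose from 9.59, 9.16, 9.25 and 9.05 to 9.81, 10.56, 10.34 and 10.41 (1.02 ± 0.21, adjusted p = 0.0262, and 1.14 without basal 9A1 replicate 1), while Ccnd2 fell (-1.57). Of 3 Ccnd3 probe sets 1 was called when every probe set was fitted, with changes from 0.09 to 1.02. Ccnd1 (-1.61) passed without that array but not with it. CDK inhibitors are the usual brakes on these cyclins. Cdkn1a, Cdkn1b and Cdkn1c had changes of -0.10, 0.30 and -0.18, and none of the inhibitors tested passed with or without that array. Rbl1, a pocket protein and E2F target, fell (-2.49).

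Myc fell from 10.71, 11.05, 11.66 and 10.84 to 8.94, 8.02, 8.58 and 8.20. The change was -2.63 ± 0.28 (6.18-fold lower; adjusted p = 0.0022), with -2.40 in 9A1 and -2.86 in 14B3, and -2.74 without basal 9A1 replicate 1. At day 5 it was at 7.92 to 9.46. Myc is also counted among the 22 immediate early genes, of which 6 fell and none rose, or 7 and 1 without that array. The 6 falls are 27.3% of that list, beside falls in 5.74% of all genes tested, or 10.5% without that array. Dusp1, a phosphatase that switches off MAP kinases, went from 11.59, 12.45, 10.72 and 11.01 to 9.30, 9.23, 8.81 and 8.41 (-2.50 ± 0.23, adjusted p = 0.00155, and -2.63 without it). Fos and Jun had changes of -1.21 and -0.39 that did not pass. The immediate early count was 2 without any 1 array of 14B3 and 4 without basal 9A1 replicate 2.

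Genes that report ERK signalling were lower throughout. All 15 tested had negative changes (median -1.05) and 5 fell, with 11 falls without basal 9A1 replicate 1 and 2 without any 1 array of 14B3. Etv5, an ETS factor induced by ERK, went from 7.15, 7.14, 6.89 and 7.34 to 5.61, 5.27, 5.56 and 5.31 (-1.69 ± 0.16, adjusted p = 0.00167). In this gene basal 9A1 replicate 1 lay within the range of the other basal arrays and the change was the same without it. Epha2, a receptor for ephrins and an ERK target, went from 9.22, 10.10, 10.17 and 9.92 to 8.80, 7.63, 8.14 and 8.0 (-1.71 ± 0.31, adjusted p = 0.0156, and -1.94 without that array). The feedback phosphatase Dusp6 changed by -1.22, and Dusp4 and Dusp5 (-1.37 and -1.42) passed without basal 9A1 replicate 1 and not with all arrays.

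Ribosome biogenesis genes were lower in both lines. All 35 tested had negative changes (median -1.20; -0.98 in 9A1 and -1.40 in 14B3), 24 fell and none rose. There were 32 falls without basal 9A1 replicate 1. The count was 11 without basal 9A1 replicate 2 and 6 to 8 without any 1 array of 14B3. Nop56, a core protein of the particles that methylate ribosomal RNA, went from 10.57, 11.34, 12.03 and 11.94 to 9.62, 9.37, 9.74 and 9.66 (-1.87 ± 0.23, adjusted p = 0.00344). Its partner Nop58 went from 10.35, 11.15, 11.51 and 11.52 to 9.46, 8.38, 9.71 and 9.52 (-1.86 ± 0.27, adjusted p = 0.00622). The 4 basal arrays lay above all day 1 arrays in both, with basal 9A1 replicate 1 the lowest of them, and without it the changes were -2.11 and -2.03. Dkc1, the pseudouridine synthase, changed by -1.82 and the nucleolar helicase Ddx21 by -1.62, while Nop10 (-0.17) and the polymerase I subunit Polr1c (-0.27) did not pass. In the promoters of the list, 7 of 33 windows (21.2%) held the E-box letters CACGTG that Myc can bind, against 7.15% of all windows and 9.05% of those of the genes tested. The share was 26.1% in the lysosomal list described below, 12.4% in genes that rose and 11.2% in genes that fell.

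The cytosolic tRNA synthetases, which charge tRNAs with amino acids, were close to the calling threshold. Of 17 tested, 6 fell and 16 had negative changes (median -0.89), 15 fell without basal 9A1 replicate 1, and none passed without basal 9A1 replicate 2 or without any 1 array of 14B3. Mars1 was at 9.99, 11.55, 11.86 and 11.84 in basal culture, then 9.70, 8.47, 9.83 and 9.52 at day 1 (-1.93 ± 0.38, adjusted p = 0.0223, and -2.29 without basal 9A1 replicate 1). Aars was at 10.15, 11.31, 11.91 and 12.04 and then at 10.22, 9.54, 10.35 and 10.27 (-1.26 ± 0.30, adjusted p = 0.0398). The Aars arrays overlapped between the cultures because of basal 9A1 replicate 1, and the change without it was -1.57. Qars was the 1 member with a positive value (0.26).

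Amino acid response genes, which cells turn on through Atf4 when amino acids run short, were lower on balance. Of 26 tested, 11 fell and 1 rose (median change -0.97; -0.53 in 9A1 and -1.21 in 14B3). Without basal 9A1 replicate 1 there were 13 falls, without basal 9A1 replicate 2 there were 6, and without any 1 array of 14B3 there were 2 to 4. Psat1, of serine synthesis, went from 9.84, 11.82, 12.59 and 12.48 to 8.48, 7.87, 9.19 and 8.82 (-3.09 ± 0.42, adjusted p = 0.00492). The next enzyme of that pathway, Psph, went from 8.80, 10.16, 11.49 and 11.65 to 8.20, 6.96, 8.46 and 8.18 (-2.57 ± 0.42, adjusted p = 0.0112). In both, basal 9A1 replicate 1 was the lowest basal array, and the changes without it were -3.58 and -2.98. Atf4 itself changed by -1.51, Slc7a11, the cystine carrier, by -2.26 and Trib3 by -2.46. Slc7a3, a carrier of cationic amino acids, rose from 5.35, 5.47, 5.68 and 5.54 to 6.36, 5.95, 6.51 and 6.18 (0.74 ± 0.15, adjusted p = 0.0233, and 0.72 without that array), all near the filter level.

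Chac1, an Atf4 target that breaks down glutathione, is described because it had the smallest unadjusted p for a signed change higher in 9A1 than in 14B3. That line difference did not pass its test (adjusted p = 0.999 by limma). It was at 7.07 and 7.19 in basal 9A1 and at 10.59 and 10.14 in basal 14B3, and at 6.01, 6.64, 6.71 and 6.55 at day 1. The day 1 levels of the lines lay close together, while both basal 9A1 arrays were far below both basal 14B3 arrays. The change was -2.27 ± 0.55 (adjusted p = 0.0434), made up of -0.80 in 9A1 and -3.74 in 14B3, and it was -2.59 without basal 9A1 replicate 1. Its promoter at chr2:119350992-119351241 (+ strand, GRCm38.p6, 250 bases before the start) holds the amino acid response letters TGATGNAA read on the other strand, in capitals, from 193 bases before the start.
Chac1: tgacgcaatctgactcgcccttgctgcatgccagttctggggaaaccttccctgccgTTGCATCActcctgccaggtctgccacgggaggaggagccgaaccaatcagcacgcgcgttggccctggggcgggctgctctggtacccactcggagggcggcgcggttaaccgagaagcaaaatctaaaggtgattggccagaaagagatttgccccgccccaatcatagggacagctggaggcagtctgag
The letters were in 8 of 29 windows of this list (27.6%), against 3.97% of all windows and 2.47% of those of the genes tested. The share was 2.88% in genes that fell and 2.78% in genes that rose.

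Targets of YAP, a co-activator that works through TEAD factors and is active in spread cells, were lower on balance. Of 20 tested, 3 fell and none rose (median change -0.45), and 8 fell without basal 9A1 replicate 1. The 3 falls are 15% of the list, beside falls in 5.74% of all genes tested, or 10.5% without that array. The count was 6 without day 1 9A1 replicate 1, 2 without basal 9A1 replicate 2 and 1 to 2 without any 1 array of 14B3. Ccn1, a secreted matrix protein, went from 10.95, 11.57, 10.58 and 9.84 to 8.71, 8.23, 8.66 and 8.50 (-2.21 ± 0.30, adjusted p = 0.00537). The day 1 arrays lay close together, and the changes were -2.79 in 9A1 and -1.63 in 14B3 (the line difference did not pass its test), with -2.22 over both without basal 9A1 replicate 1. F3, the tissue factor that starts clotting, went from 10.38, 10.92, 10.33 and 10.35 to 9.95, 8.12, 8.60 and 8.24 (-1.77 ± 0.37, adjusted p = 0.0262, and -1.91 without that array). Ccn2 and Ankrd1 had changes of -2.15 and -2.39 and passed without that array but not with it. The promoter of Ccn1 at chr3:145649986-145650235 (- strand, GRCm38.p6, 250 bases before the start) holds the TEAD letters GGAATG on the other strand, in capitals, from 103 bases before the start.
Ccn1: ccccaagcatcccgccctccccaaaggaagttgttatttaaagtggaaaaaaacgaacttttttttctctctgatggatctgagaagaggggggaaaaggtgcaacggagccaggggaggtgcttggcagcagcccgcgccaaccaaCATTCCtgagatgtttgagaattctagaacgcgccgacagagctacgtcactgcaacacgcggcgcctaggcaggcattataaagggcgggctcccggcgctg
In the YAP list 8 of 14 windows (57.1%) held these letters, against 14.7% of all windows and 12.8% of those of the genes tested. The share was 10.6% in genes that fell and 13.0% in genes that rose.

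Caveolae, the small pits of the plasma membrane, and focal adhesions gave a mixed result. Of 23 genes, 4 fell and 3 rose (median change -0.22). Calls came to 30.4% of the list, beside 8.31% of all genes tested. Cav1, the main caveolar coat protein, went from 10.32, 12.30, 12.40 and 11.99 to 9.12, 9.28, 9.51 and 9.38 (-2.43 ± 0.39, adjusted p = 0.01, and -2.89 without basal 9A1 replicate 1). Cav2 changed by -1.03, Cavin2 by -1.85 (-2.21 without that array) and the integrin subunit Itgb6 by -1.53. Of 3 Cavin2 probe sets 1 was called when every probe set was fitted, with changes from -1.96 to -1.39. The rises were in Tns1, Pxn and Itgb5, of which Tns1, which links integrins to actin, went from 9.09, 9.70, 9.36 and 9.49 to 10.40, 9.71, 10.83 and 10.87 (1.04 ± 0.24, adjusted p = 0.038, and 1.00 without that array). Falls numbered 6 and rises 3 without basal 9A1 replicate 1, and without any 1 array of 14B3 there were none to 2 falls and none to 1 rise. Actin and contractile genes gave 1 fall, Srf (-0.79), in 29 tested, and matrix genes gave 2 falls in 29, Lamb1 (-1.78) and Col4a2 (-0.74). These are 3.45% and 6.90% of the lists, beside falls in 5.74% of all genes tested.

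Ackr3, a scavenging receptor for the chemokine CXCL12, was among the 8 largest falls. It went from 7.72, 9.41, 9.94 and 9.88 to 6.00, 4.92, 6.58 and 6.18, a change of -3.32 ± 0.39 (adjusted p = 0.00275), and of -3.70 without basal 9A1 replicate 1. Among BMP and TGF-beta targets 3 of 19 fell (4 without that array), the inhibitors of differentiation Id1, Id2 and Id3. The 3 falls are 15.8% of the list, beside falls in 5.74% of all genes tested, or 10.5% without that array. Id3 went from 10.35, 10.73, 9.85 and 9.47 to 9.36, 7.64, 7.76 and 7.66 (-1.99 ± 0.34, adjusted p = 0.0133), with day 1 9A1 replicate 1 high. Id2 changed by -0.79 ± 0.20 (adjusted p = 0.0489) and Id1 by -0.49. None of the 3 Id2 probe sets was called when every probe set was fitted. Leaving out basal 9A1 replicate 1 gave -2.06 in Id3 and -0.89 in Id2. The count was none to 1 without basal 9A1 replicate 2 or any 1 array of 14B3.

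Rises were fewer, and lysosomal genes held the largest share of called members among the lists with positive medians. Of 25 tested, 14 rose and none fell (median change 0.58; 0.43 in 9A1 and 0.76 in 14B3), and 15 rose without basal 9A1 replicate 1. The count was 10 without day 1 9A1 replicate 1, 5 without basal 9A1 replicate 2 and 1 to 2 without any 1 array of 14B3. Ctsa, the cathepsin that protects lysosomal glycosidases, rose from 11.23, 9.94, 9.71 and 10.01 to 11.92, 11.76, 11.98 and 11.93 (1.68 ± 0.29, adjusted p = 0.0145, and 2.02 without basal 9A1 replicate 1). The day 1 arrays lay close together, and basal 9A1 replicate 1 was 1.34 units above the mean of the other basal arrays. Of 2 Ctsa probe sets 1 was called when every probe set was fitted, with changes of 1.68 and 0.41. Grn, the precursor of lysosomal granulins, rose from 11.83, 11.07, 10.90 and 11.07 to 12.37, 13.12, 12.63 and 12.63 (1.47 ± 0.22, adjusted p = 0.00728, and 1.66 without that basal array). Neu1 (1.42), Lipa (1.42), Tpp1 (1.01), Mcoln1 (0.86) and Lamp1 (0.81) also rose, whereas Ctsl (0.00) and Ctsz (-0.52) did not pass. At day 5 Ctsa was at 11.61 to 11.80 and Grn at 11.31 to 11.81.

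Ctsa has more than 1 window, and a stretch of 30 bases just before the start of its window 2 is shown (chr2:164833743-164833772, + strand, GRCm38.p6). It was picked because it holds TCACGTGA, the core of the motif bound by the lysosomal regulator TFEB, which includes the E-box. The motif, in capitals, begins 13 bases before that start.
Ctsa: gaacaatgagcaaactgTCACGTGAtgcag
These letters were in 3 of 23 windows of the lysosomal list (13.0%), in 22 of 468 windows of genes that rose (4.70%), in 6 of 902 windows of genes that fell (0.665%) and in 0.974% of all windows. In the genes tested the share was 1.52%.

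Fatty acid oxidation genes were higher in both lines. Of 18 tested, 6 rose and none fell (median change 0.78; 0.56 in 9A1 and 0.97 in 14B3), and 13 rose without basal 9A1 replicate 1. The count was 2 to 3 without basal 9A1 replicate 2 or any 1 array of 14B3 and 4 without day 1 9A1 replicate 2. Cpt1a, which admits long-chain fatty acids to mitochondria, rose from 11.29, 10.73, 10.98 and 11.42 to 12.19, 12.19, 12.52 and 12.54 (1.25 ± 0.16, adjusted p = 0.0035). The change was 1.18 in 9A1 and 1.33 in 14B3, and 1.38 over both without basal 9A1 replicate 1, and the day 1 level was above that of day 5 (11.09 to 11.74). Acot1, a thioesterase of the cytosol, rose from 9.47, 9.00, 8.63 and 8.93 to 10.85, 10.83, 11.46 and 11.04 (2.03 ± 0.23, adjusted p = 0.00246, and 2.21 without that array). Acadm (0.91) and both subunits of the trifunctional protein, Hadha (0.83) and Hadhb (0.75), rose too. Acot1 shares sequence with Acot2, so its probe set may read both.

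The largest rises were in genes of drug handling and in a few single genes. Folr1, a folate receptor, rose from 7.01, 5.90, 5.60 and 6.02 to 9.87, 9.07, 9.90 and 9.93 (3.56 ± 0.34; 11.8-fold; adjusted p = 0.00173). It had the widest gap between cultures of any rise, 2.06 units, and was called with any 1 array left out. Hal, which begins the breakdown of histidine, rose from 6.63, 5.68, 5.60 and 6.18 to 8.29, 8.50, 9.43 and 9.37 (2.88 ± 0.33, adjusted p = 0.00258). Agt, the liver's angiotensinogen, rose from 8.73, 7.37, 6.69 and 7.25 to 10.06, 10.05, 10.59 and 10.51 (2.79 ± 0.40, adjusted p = 0.00648). In Folr1, Hal and Agt basal 9A1 replicate 1 was the highest basal array yet below every day 1 array, and without it the changes were 3.89, 3.20 and 3.22. Camk1d, a calcium-dependent kinase, rose by 2.44 ± 0.31 (adjusted p = 0.00363), with 2.38 in 9A1 and 2.49 in 14B3, and 2.75 without that array.

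Drug and retinal metabolism had 4 rises and no fall in 24 genes (median change 1.06, with 0.73 in 9A1 and 2.03 in 14B3). Rises made up 16.7% of the list, beside 2.58% of all genes tested, or 8.58% without basal 9A1 replicate 1. Without basal 9A1 replicate 1 there were 19 rises and 1 fall, Aldh3a1, and the median was 2.05. Without any 1 array of 14B3 none passed, and without basal 9A1 replicate 2 there were 2. Cyp2c55, a cytochrome P450, had the largest rise of any called gene, from 9.81, 5.35, 5.80 and 6.18 to 10.75, 13.02, 12.32 and 12.31 (5.32 ± 0.96; 39.8-fold; adjusted p = 0.0157). Here basal 9A1 replicate 1 lay 4.03 units above the mean of the other basal arrays, and without it the change was 6.41 ± 0.48. Gstm1, a glutathione transferase, rose from 12.52, 10.48, 10.27 and 11.004 to 12.94, 13.54, 13.62 and 13.53 (2.34 ± 0.46, adjusted p = 0.021, and 2.87 without that array). Ugt2b35, a glucuronosyltransferase, rose from 11.27, 8.09, 6.42 and 7.84 to 11.60, 11.34, 11.47 and 11.19 (2.99 ± 0.75, adjusted p = 0.049), its cultures overlapping through basal 9A1 replicate 1, without which the change was 3.87. Its only probe set was not called when every probe set was fitted. The fourth rise was Ephx1 (0.95). Among those that passed without basal 9A1 replicate 1 and not with all arrays were the retinal dehydrogenase Aldh1a1 (4.34 without and 3.001 with that array), the amine oxidase Maob (4.35 and 3.36), the carboxylesterase Ces2a (4.32 and 2.81) and Cyp2c65 (3.47 and 2.40). Probe sets of the Cyp2c, Ugt2b, Gstm, Ces2 and Aldh1a families may bind close paralogs, so these values are of the probe sets and not surely of 1 gene.

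**Figure D3:**
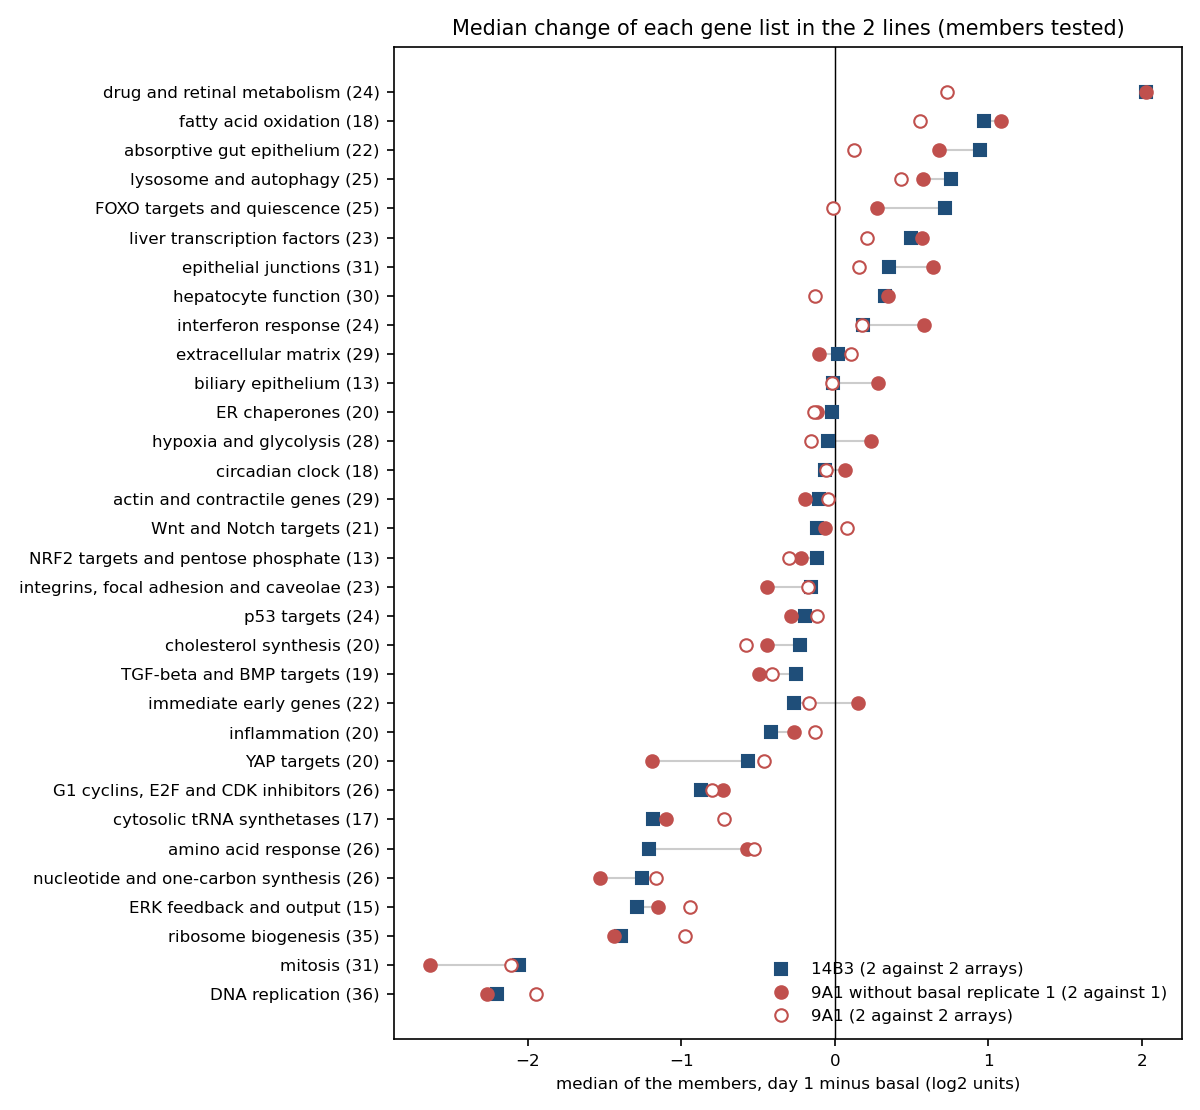
Median change of the members of each list, day 1 minus basal in log2 units (x axis), in 14B3 (squares), in 9A1 with all arrays (open circles) and in 9A1 without basal replicate 1 (filled circles), with the number of members tested in brackets. DNA replication lies at -2.20 in 14B3 and -1.95 in 9A1, and drug and retinal metabolism at 2.03 and 0.73.

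Epithelial junction genes gave 3 rises and 1 fall in 31 (median change 0.22), and 9 rises and 2 falls without basal 9A1 replicate 1. With all arrays 12.9% of the list was called, beside 8.31% of all genes tested. Without that array 19.1% of all genes were called. Llgl2, of the basolateral polarity complex, rose from 9.07, 8.54, 8.0 and 8.33 to 9.65, 9.28, 9.76 and 9.80 (1.14 ± 0.25, adjusted p = 0.0308, and 1.34 without that array). Cldn2, a claudin that forms cation pores, rose by 1.06 ± 0.26 (adjusted p = 0.0457; 0.96 without it), and F11r by 0.47. Gja1, a gap junction protein of progenitors and mesenchyme, fell from 10.66, 12.67, 12.82 and 12.84 to 10.73, 10.04, 10.19 and 10.17 (-1.96 ± 0.46, adjusted p = 0.0381). Of 6 Gja1 probe sets 2 were called when every probe set was fitted, with changes from -2.11 to -0.43. The level on basal 9A1 replicate 1 was that of day 1, and the change without it was -2.50 ± 0.18. Gjb1, the main connexin of hepatocytes, had a change of 1.31 that passed without that array (2.29) and not with it. Those of the desmosomal Dsp and Dsg2 and the tight junction protein Tjp3 also passed without that array and not with it, at 1.28, 1.01 and 1.46 when it was left out. With any 1 array of 14B3 left out, at most 1 junction gene passed, and with basal 9A1 replicate 2 left out none did.

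Of the liver transcription factors 2 in 23 rose, Hhex (1.55) and Hnf4a, and 8 rose without basal 9A1 replicate 1. The 2 rises are 8.70% of the list, where 8.31% of all genes tested were called and 2.58% rose. Without that array 8.58% of all genes tested rose. Hnf4a, a nuclear receptor that sets hepatocyte identity, went from 11.99, 11.48, 10.98 and 11.48 to 12.07, 12.67, 12.24 and 12.23 (0.82 ± 0.20, adjusted p = 0.0413, and 0.96 without that array). Maf, a bZIP factor, rose from 8.84, 7.77, 6.11 and 6.25 to 9.57, 9.37, 10.75 and 10.38 (2.78 ± 0.62, adjusted p = 0.0326, and 3.31 without it). Of 6 Maf probe sets 2 were called when every probe set was fitted, with changes from 0.23 to 2.78. For Hnf4a 1 of 4 probe sets was called in that fit, with changes from 0.61 to 0.82. The factors that passed without basal 9A1 replicate 1 and not with all arrays included the xenobiotic receptor Nr1i2 (2.29 without and 1.73 with it), the bile acid receptor Nr1h4 (1.37 and 0.93) and Foxa3 (1.14 and 0.84). None to 1 liver factor passed without basal 9A1 replicate 2 or any 1 array of 14B3. Absorptive gut genes gave 1 rise in 22 (4.55%), Cdx2 (0.66), with 13 rises without basal 9A1 replicate 1. Biliary genes gave 1 rise in 13 (7.69%), the anion exchanger Slc4a2 (1.07). These stand beside the shares over all genes given above.

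Hepatocyte function genes gave no call with all arrays in the 30 tested (median change 0.05), and 11 passed as higher without basal 9A1 replicate 1. Of all genes tested, 8.58% passed as higher without that array. Alb, the main plasma protein of liver, was at 13.13, 6.86, 6.20 and 5.57 in basal culture, at 9.99, 7.39, 9.79 and 9.58 at day 1 and at 11.88 to 14.21 at day 5. Its basal 9A1 replicate 1 was above every day 1 array and within the day 5 range, and day 1 9A1 replicate 2 was the lowest day 1 array. The change was 1.25 ± 1.50 (adjusted p = 0.723) with all arrays and 3.01 ± 0.65 (adjusted p = 0.0158) without that basal array. In 9A1 it turned from -1.31 to 1.83. Others that passed without it were the fatty acid binding protein Fabp1 (4.27, and 2.88 with it), Apoa1 (3.03 and 1.40), coagulation factor F10 (2.45 and 1.84), the heme carrier Hpx (2.29 and 1.54) and the urea cycle enzyme Cps1 (1.99 and 1.18).

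Ttr, the thyroid hormone carrier, had the largest rise among the genes called without basal 9A1 replicate 1 and not with all arrays. It was at 13.14, 6.21, 6.14 and 7.86 in basal culture, then 12.44, 12.88, 13.37 and 13.34 at day 1. Of the basal arrays 9A1 replicate 1 lay within the range of day 1, and the other 3 lay far below it. The change was 4.67 ± 1.39 (adjusted p = 0.0819) with all arrays and 6.39 ± 0.37 (adjusted p = 0.000202) without it. The next in order were Ugt2b5 (3.36 with and 5.02 without), the calcium-binding S100g (3.24 and 4.93) and complement C9 (3.12 and 4.57).

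Falls called without that array and not with it had the same form. The rises above and these falls were chosen by that rule. It favours genes in which basal 9A1 replicate 1 lies toward the day 1 level, so its position in them is no separate result. Clca3b, of a family of secreted channel regulators, was at 7.25, 11.81, 11.72 and 11.56 in basal culture, then 8.96, 8.97, 7.63 and 7.57 at day 1 (-2.30 ± 1.01 with all arrays, adjusted p = 0.223, and -3.56 ± 0.25 without, adjusted p = 0.000206). The matrix protein Fbln2 was at 8.30, 12.00, 11.94 and 11.58 and then at 9.08, 8.62, 8.76 and 8.55 (-2.20 with and -3.12 without). The chemokine Ccl9 was at 5.87, 10.03, 11.01 and 10.17 and then at 5.80, 6.33, 5.61 and 5.95 (-3.35 and -4.47). Cardiac troponin Tnnt2 changed by -3.66 with all arrays and -4.74 without, but 1 of its 3 probe sets had a positive change (0.04), and the gene was also called without day 1 9A1 replicate 1. In each of these genes basal 9A1 replicate 1 lay below the other basal arrays, at or below a day 1 level. Clca probe sets may bind paralogs.

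**Figure D4:**
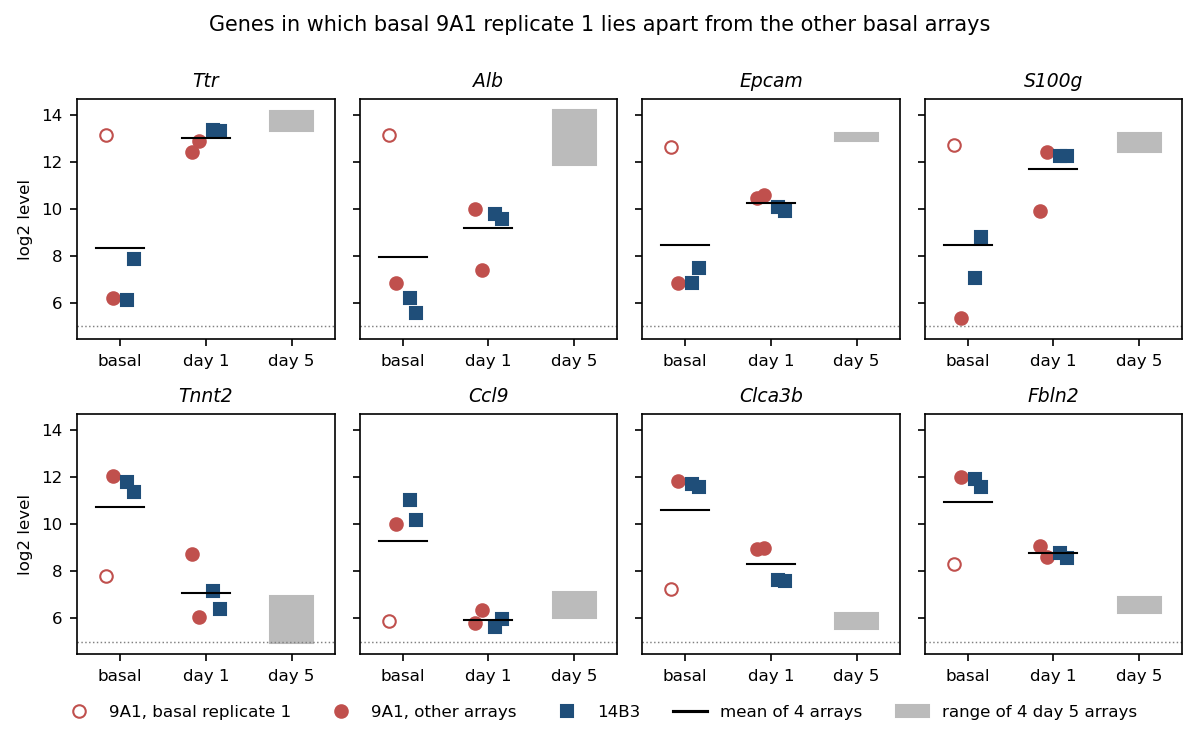
Level of 8 genes on each basal and day 1 array (y axis, log2; x axis, culture; circles 9A1, squares 14B3, bars the mean of 4 arrays) with the range of the 4 day 5 arrays as a grey box and the filter level of 5 as a dotted line. Basal 9A1 replicate 1 (open circle) lies at 13.13 in Alb and 12.63 in Epcam, where the other basal arrays lie between 5.57 and 7.48.

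The panel of progenitor, hepatocyte and bile duct markers gave 1 call, Hnf4a, with all arrays. Epcam, an adhesion protein of hepatoblasts and bile ducts, was at 12.63, 6.86, 6.86 and 7.48 in basal culture, then 10.48, 10.58, 10.07 and 9.93 at day 1. Its other probe set had a change of 0.60 with all arrays. The change of the probe set used was 1.81 ± 1.09 (adjusted p = 0.401), and 3.16 ± 0.24 (adjusted p = 0.000227) without basal 9A1 replicate 1. Krt7, a bile duct keratin, passed as lower without it (-1.33) and not with it (-0.91). Krt19 was high and close to level on all arrays, at 13.86, 13.63, 13.97 and 13.99 and then at 13.88, 13.94, 13.96 and 13.97. Cdh1, Cd24a, Cd44, Sox9, Prom1 and Afp passed neither with nor without that array. Their changes with all arrays were 0.23, -0.06, -0.39, 0.23, -0.80 and -0.39, those of Sox9 and Afp turned to -0.36 and 0.36 without it, and Prom1 stayed near the filter level on all arrays but basal 9A1 replicate 1 (7.31).

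The lines share no array, so genes chosen in 14B3 could be read in 9A1. In 14B3 alone 5270 genes (33.8%) were called, 2581 higher (16.6%) and 2689 lower (17.3%). In 9A1 alone none (0.0%) was called by limma, with 592 at an unadjusted p under 0.05, and 253 (1.62%) were called there without basal replicate 1, 88 higher (0.565%) and 165 lower (1.06%). Of the 2581 genes higher in 14B3, 76.3% had a positive change in 9A1, and of the 2689 lower, 94.5% a negative one. These shares were 88.0% and 96.1% without basal 9A1 replicate 1. The 9A1 arrays did not overlap, in the direction of 14B3, in 27.7% of the risers and 54.0% of the fallers, and in 69.8% and 89.5% without that array, where 1 basal array is left. Over all genes tested 13.0% were higher and 15% lower at day 1 in 9A1 without overlap, and 29.1% and 28.5% without that array. Median changes of the risers were 0.75 in 14B3 and 0.29 in 9A1, or 0.53 without the array, and those of the fallers were -0.81, -0.62 and -0.84. Across all genes, which are not independent, the correlation of the changes in the lines was 0.660, and 0.816 without it.

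**Figure D5:**
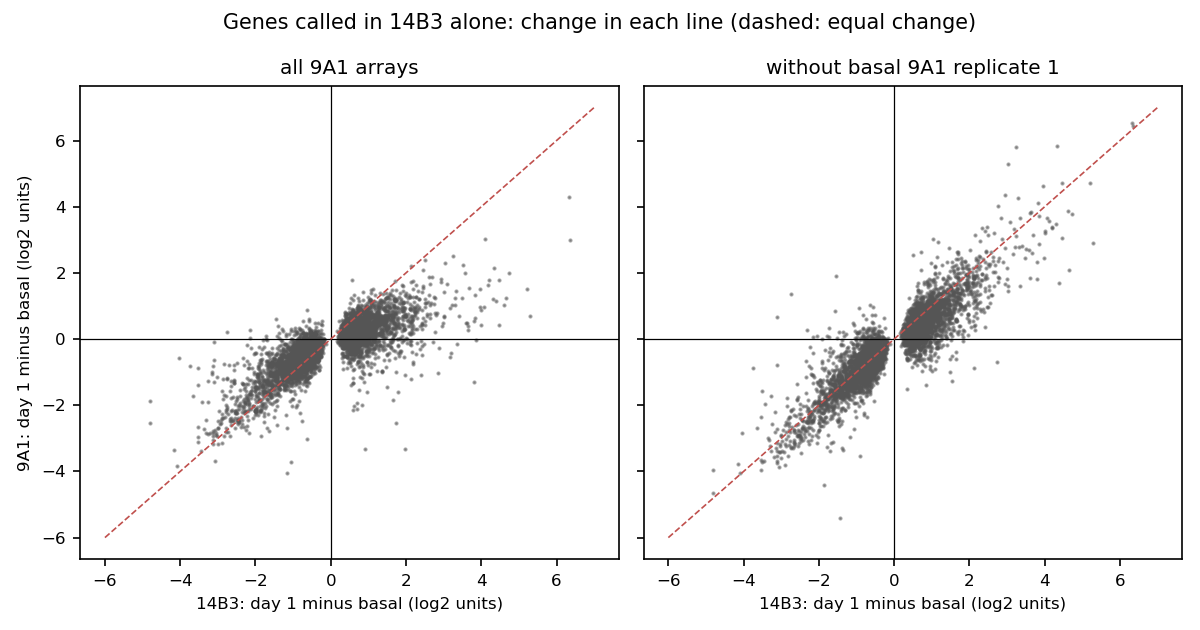
Change at day 1 in 9A1 (y axis) against that in 14B3 (x axis), both in log2 units, for the 5270 genes called in 14B3 alone, with all 9A1 arrays (left) and without basal 9A1 replicate 1 (right); the dashed line marks equal change. With all arrays 76.3% of the genes higher in 14B3 were also higher in 9A1, and 88.0% without that array.

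Of the 51 named genes that were called, 24 were called with any 1 array left out, among them Cdc6, Ccne2, E2f7, Myc, Nop56, Psat1, Ccn1, Folr1, Hal, Agt, Cpt1a and Grn. The other 27 lost the call without at least 1 array of 14B3, with highest adjusted p of 0.0586 to 0.182. They were Cyp2c55, Ugt2b35, Maf, Gstm1, Mthfd2, Ccnd3, Epha2, Mars1, Aars, Psph, Slc7a3, F3, Cav1, Cavin2, Tns1, Llgl2, Cldn2, Gja1, Id3, Id2, Pfkp, Egln3, Pfkm, Ctsa, Chac1, Irs1 and Hnf4a. Without basal 9A1 replicate 2, 16 were lost, without day 1 9A1 replicates 1 and 2, 6 and 7, and without basal 9A1 replicate 1, none.

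No gene passed the test of a line difference in the day 1 response (0 of 15570, 0.0%; lowest adjusted p 0.999; 236 at an unadjusted p under 0.05). On simulated data the test missed most of the line differences put in, so it does not show that the lines responded alike. With 1 array left out, calls of a line difference appeared only when it was basal 9A1 replicate 2. Basal 9A1 was then replicate 1 alone, which lay toward the day 1 level in many genes. Those calls are not read as line differences. The 4 genes with the smallest unadjusted p for a signed change higher in 9A1 than in 14B3 were Chac1 (difference 2.93 ± 0.42), Acan, Ptgs2 and Pkp1. All 4 changed less in 9A1. The changes in 9A1 and 14B3 were -0.80 and -3.74 in Chac1, -0.04 and -1.80 in Acan, -0.64 and -3.11 in Ptgs2, and -0.02 and -1.70 in Pkp1. Acan, the cartilage proteoglycan aggrecan, was at 6.10, 5.85, 8.05 and 7.93 in basal culture, then 5.73, 6.14, 6.09 and 6.30 at day 1. Ptgs2, which makes prostaglandins, was at 6.74, 7.02, 10.53 and 9.93 and then at 6.53, 5.93, 7.42 and 6.82. Over both lines its change was -1.88, and -2.18 without basal 9A1 replicate 1. In each of the 4 the basal level was higher in 14B3, on both arrays, than in 9A1.

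The 4 genes with the smallest unadjusted p for a signed change lower in 9A1 than in 14B3 were Maf (-3.23 ± 0.52), Apob, Irs1 and Kbtbd11. Irs1, which passes on the signal of the insulin receptor, was at 8.88, 9.09, 9.07 and 8.62 in basal culture, then 9.68, 9.31, 10.99 and 10.97 at day 1. Its basal arrays were alike in the lines and its day 1 arrays were higher in 14B3. The change over both lines was 1.32, and 1.44 without basal 9A1 replicate 1. The only Irs1 probe set was not called when every probe set was fitted. Apob, the protein of liver lipoproteins, was at 12.46, 11.46, 10.78 and 11.005 and then at 12.06, 11.60, 12.85 and 13.01. Its change in 9A1 was -0.13, or 0.37 without basal replicate 1, and 2.04 in 14B3. Probe sets of Kbtbd11 disagreed in sign, 2 against 2.

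The remaining lists gave none to 3 calls each, or 0 to 15.4% of their tested genes beside 8.31% over all genes. Genes of the p53 response gave 1 fall in 24, Plk2 (-0.85), and FOXO targets, which often mark resting cells, gave none in 25 (median change 0.28), with 4 rises without basal 9A1 replicate 1, Txnip among them (1.26 with all arrays). The FOXO median was 0.72 in 14B3 and -0.01 in 9A1. In that list 16 of the 25 rose in 14B3 alone, and 16 with array weights. Without basal 9A1 replicate 1 and day 1 9A1 replicate 2 together 16 rose, and 4 without day 1 9A1 replicate 2 alone. Glycolysis and hypoxia genes gave 2 falls and 1 rise in 28, among them a pair of phosphofructokinase isoforms. Pfkp fell from 10.33, 8.32, 7.86 and 8.33 to 7.73, 7.14, 6.05 and 5.74 (-2.04 ± 0.41, adjusted p = 0.0228), while Pfkm, the muscle isoform, rose from 9.54, 9.84, 10.03 and 10.12 to 10.34, 10.62, 10.98 and 11.002 (0.85 ± 0.14, adjusted p = 0.0106). Of 3 Pfkp probe sets 1 was called when every probe set was fitted, with changes from -2.04 to -0.40. Among basal arrays, 9A1 replicate 1 was the highest in Pfkp and the lowest in Pfkm, and without it the changes were -1.67 and 0.80. Egln3, an oxygen sensor, changed by -0.65, and by -0.54 without it.

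No cholesterol synthesis gene passed in 20, with or without that array (median change -0.46). Day 1 9A1 replicate 1 had a list mean of 9.40, against 10.78 to 10.96 on the other day 1 arrays. Without that day 1 array the list's median change was -0.12, again with no call, and without basal 9A1 replicate 1 it was -0.34. Endoplasmic reticulum chaperones gave 1 rise in 20, Calr (0.50), and NRF2 targets gave 2 falls in 13, Txnrd1 (-0.89) and Slc7a11. Interferon genes gave 1 rise in 24, Ddx58 (0.86), inflammation genes 1 fall in 20, Tnfaip3 (-1.24), and the clock 2 falls in 18, Cry1 (-1.13) and Ciart (-0.61). Wnt and Notch targets gave none in 21, with 3 falls without basal 9A1 replicate 1. Leaving that array out gave 6 rises and 1 fall in the interferon list, among them Ifih1 (1.26), 8 falls in the inflammation list, among them the chemokine Cxcl5 (-3.02) and Lcn2 (-1.95), and 4 rises and 2 falls in glycolysis and hypoxia, with Ndrg1 at 2.54. The genes given here and above as examples of calls made without basal 9A1 replicate 1 were picked from the lists after their values were seen. Without basal 9A1 replicate 1 the p53 list gave 1 rise and 5 falls, the chaperones 2 of each, the NRF2 list 3 falls and the clock 2 of each. Actin genes gave 2 rises and 6 falls, matrix genes 4 falls and biliary genes 3 rises and 1 fall. Over all genes tested, 8.58% rose and 10.5% fell without that array, 19.1% in total. Counts near these shares are no result about a list.

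The labelled cell type was checked against markers of other cells. Of the blood list 3 genes reached the filter, Csf1r, Lyz2 and Cd68, with list means of 6.81 to 7.80 over the 8 arrays. Csf1r rose (1.64, not called without any 1 array of 14B3), while Ptprc, Hba-a1, Adgre1 and Itgam did not reach the filter. None of the 6 endothelial and 5 mesenchymal markers tested passed with or without basal 9A1 replicate 1, with list means of 4.96 to 5.42 and 5.97 to 6.63 over the 8 arrays, and Tek, Lyve1, Lrat, Col3a1 and Lum did not reach the filter. Hepatocyte genes averaged 8.92 on basal 9A1 replicate 1, 6.61 to 6.81 on the other basal arrays and 7.39 to 7.80 at day 1. Single members were higher than these means on the other basal arrays, among them Apob, given above, and Afp, at 11.75 and 11.44 in basal 14B3. The bile duct keratin Krt19 was high throughout.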

How the data were processed

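Total RNA of 12 cultures was labelled with biotin and hybridised to Affymetrix mouse genome arrays, per the labels' protocols. The deposited log2 values were made by the authors with RMA, and R 2.3.1 is named beside it in the submitters' processing notes, with no detection calls, so that values near 5 have no stated reliability. Of 45101 probe sets, 34945 name 1 gene in the platform annotation and 34741 of these were found in RefSeq. Each of 18193 genes was represented by its brightest probe set, on average over the 12 arrays. Other probe sets of the same gene can change less or not be called, as given above for some genes. The number of arrays, 8, limits the precision. The model was fitted with limma 3.58.1 in R 4.3.3 (line and culture as terms, empirical Bayes with a variance trend), and the line difference with the 4 groups of arrays as separate means. Both were tested on simulated data. The comparison of cultures missed many of the 2-fold changes put in, recovered most of the 4-fold ones and made some false calls. A gene that was not called may therefore still have changed. Single genes were named by rule: the 8 largest rises and falls, the 4 widest gaps each way, leading called members of each list, the 4 smallest p each way for a line difference, the 4 largest each way called without basal 9A1 replicate 1 and not with all arrays, and a marker panel. The members and lists were chosen with earlier results of these data known. The E-box and TCACGTGA motifs were added after seeing the data. List genes matched: 779 of 832. Same-numbered replicates did not vary together (correlation of deviations -0.307 in 9A1 and -0.0966 in 14B3), so the numbers were not used as pairs. No scan date or batch was used here.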

Additional observations from a re-analysis of the deposited data

Results flagged for a closer look

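Levels of the named genes and list means were screened for a single array far from the other 3 of its culture, by the gap to its nearest neighbour as a share of the whole range (Dixon's ratio, at its 95% critical value). Of 218 sets of 4 arrays, 22 passed. Chance passes about 1 in 20 sets, but the count is not read against chance, because 8 of the genes were named for being called without basal 9A1 replicate 1 and not with all arrays. Of these, Ugt2b5, Tnnt2, Clca3b and Fbln2 are among the 10 sets in which that array passed. All 22 arrays were of 9A1: basal replicate 1 in 10, basal replicate 2 in 1, day 1 replicate 1 in 8 and day 1 replicate 2 in 3.

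Basal 9A1 replicate 1 was high in Epcam (12.63, ratio 0.893) and Ugt2b5 (12.12, 0.86), and in the means of the hepatocyte list (8.92, 0.913) and the absorptive gut list (9.09, 0.869). It was low in the mitosis list's mean (9.67, 0.871) and in Mars1 (9.99, 0.836), Gja1 (10.66, 0.922), Tnnt2 (7.79, 0.833), Clca3b (7.25, 0.945) and Fbln2 (8.30, 0.885). Basal 9A1 replicate 2 was high in F3 (10.92, 0.914).

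Day 1 9A1 replicate 1 was high in Id3 (9.36, ratio 0.927), Sox9 (9.24, 0.92), Cd44 (12.51, 0.864) and the mean of the BMP and TGF-beta list (8.28, 0.855). It was low in Gstm1 (12.94, 0.87), S100g (9.93, 0.919), C9 (9.27, 0.913) and the mean of the cholesterol list (9.40, 0.882). Day 1 9A1 replicate 2 was low in Folr1 (9.07, 0.933), Aars (9.54, 0.843) and Alb (7.39, 0.841).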

How the results depend on the processing

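The 1294 calls (401 higher, 893 lower) stayed within 1.5 times under no filter, a filter at 6, the mean of probe sets, no trend, robust moderation, 4 group means and no line term. Other settings gave, as total, higher and lower: every probe set 1984, 547 and 1437; array weights 5689, 2938 and 2751; 6 group means on 12 arrays 2247, 838 and 1409; an adjusted p under 0.01 343, 60 and 283; a 2-fold minimum 780, 177 and 603; 14B3 alone 5270, 2581 and 2689; 9A1 alone 0, 0 and 0. Without basal 9A1 replicate 1 and day 1 9A1 replicate 2 together they were 5662, 2930 and 2732, and in 9A1 without basal replicate 1, chosen after seeing the data, 253, 88 and 165. Median centring gave 225 rises and quantile normalisation 772. With 1 array left out the ranges were 318 to 2975, 60 to 1336 and 258 to 1639, and for the line difference 0 to 300, 0 to 29 and 0 to 271; it gave 0 in the other settings run. The cause was not tested.

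The numbers did not pair the replicates; with the replicate block the counts were 454, 86 and 368, and with the day 1 9A1 numbers crossed, also chosen after seeing the data, 1837, 495 and 1342.

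Reversed signs were confined, among the named genes and the settings run, to genes not called: Kbtbd11 (-0.052, mean of probe sets); Cd24a (0.0036, quantile normalisation); with array weights Afp (0.016), Sox9 (-0.10) and Cd24a (0.072); in 14B3 alone Krt19 (-0.013), Sox9 (-0.32) and Cd24a (0.10); in 9A1 alone Apob (-0.13), Kbtbd11 (-0.42), Alb (-1.31) and Cd44 (0.16). In 9A1 without basal replicate 1 they were Acan (0.082), Kbtbd11 (-0.48), Afp (1.12), Sox9 (-0.41) and Prom1 (0.27). Without basal 9A1 replicate 1 and day 1 9A1 replicate 2 together they were Sox9 (-0.082) and Cd24a (0.087). Leaving out 1 array, or that pair, reversed Afp (range -1.05 to 0.36), Sox9 (-0.36 to 0.59), Cd24a (-0.22 to 0.17) and Kbtbd11 (-0.016 to 0.29).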
